A study of Homo sapiens with 28 samples.

Results

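Polyamine metabolism was described here by 10 genes of 61815 human genes counted in LNCaP cells, an androgen-responsive line derived from human prostate cancer. The genes were taken by symbol: ODC1, AMD1, SRM and SMS of synthesis, SAT1, PAOX and SMOX of breakdown, and the regulators OAZ1, OAZ2 and AZIN1. All cells were wild type and were kept in hormone-stripped (CSS) medium before treatment. Every group was thus androgen deprived beforehand, and the groups without R1881 received no androgen. In the 24 h experiment the 4 groups received DMSO vehicle, 1 µM Senexin B, 0.1 nM R1881 or both compounds, with 3 libraries each. In the 72 h experiment they received vehicle, 500 nM SNX631, 1 nM R1881 or both, with 4 libraries each. R1881 is a synthetic androgen, and Senexin B and SNX631 are inhibitors of the Mediator kinases CDK8 and CDK19 (CDK8/19i). The labels give Senexin B at 1 µM, a dose that the text of the study states differently. Time, androgen dose, inhibitor and experiment changed together, so their parts in a difference between the experiments cannot be told apart, and all values belong to 1 cell line.

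The polyamines putrescine, spermidine and spermine are small cations that bind nucleic acids and are needed for cell growth, and the prostate secretes spermine in large amounts. ODC1 converts ornithine to putrescine, AMD1 makes decarboxylated S-adenosylmethionine as the donor of aminopropyl groups, and SRM and SMS use that donor to build spermidine and then spermine. SAT1 acetylates spermidine and spermine, PAOX oxidises the acetylated forms, and SMOX oxidises spermine directly. Antizymes, such as OAZ1 and OAZ2, bind the ODC1 protein and bring it to the proteasome, and the antizyme inhibitor AZIN1 binds antizyme in turn. Much of the control of ODC1, AMD1, SAT1 and the antizymes acts on translation and protein turnover, which counts of RNA do not measure.

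Total counts per library were 9846595 to 15248512, apart from vehicle 24 h replicate 3 with 33809419. The androgen target KLK3 rose from a mean of 1.45 CPM (counts scaled to library size, with factors of the trimmed mean of M-values over all 28 libraries) to 112 CPM with R1881 at 24 h, and from 1.42 to 137 CPM at 72 h, which checks the androgen labels. All 8 luminal prostate markers were detected in every group, while KRT5 and CD3E were at 0 in all groups. The basal list summed to at most 0.447 CPM. The leukocyte list summed to at most 1.40 CPM, with R1881 at 24 h, mostly from CD68, which was detected in every group. The summed stromal list was 26.6 to 30.4 CPM in vehicle and 15.2 to 16.7 CPM with R1881 at 24 h, mostly from COL1A1 and COL3A1, and its part in the results below was not tested. A gene was called at an edgeR false discovery rate (FDR) under 0.01 with a change of over 1.5-fold, and "past the FDR limit" means the first condition alone.

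Promoter sequences are shown for the 5 genes that were called with androgen in at least 1 comparison. Bases are from RefSeq on GRCh38.p14, read 5′ to 3′ on the strand of the gene, and leave out every base that GENCODE 29 places in an exon of that gene. ODC1 (chromosome 2, 10439968 to 10448504, minus strand) has 2 RefSeq starts. Its upstream stretch is chr2:10448505-10448577, and its internal stretch, chr2:10448013-10448120, lies within an intron. The stretches of AMD1 (6, 110874770 to 110895713, plus strand) at chr6:110874650-110874769, SRM (1, 11054584 to 11060024, minus strand) at chr1:11060025-11060144, SMS (X, 21940573 to 21994835, plus strand) at chrX:21940459-21940572 and SAT1 (X, 23783173 to 23786226, plus strand) at chrX:23783053-23783172 end just before the first exon. A further AMD1 start upstream is not shown. Capitals mark matches to short motifs on either strand. They are the E-box with the letters CACGTG, the GC box with the letters GGGCGG, the CCAAT box as its name spells it, and the TATA box, searched for here as TATAA.
ODC1 upstream: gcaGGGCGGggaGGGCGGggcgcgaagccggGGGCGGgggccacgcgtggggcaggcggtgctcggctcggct
ODC1 internal: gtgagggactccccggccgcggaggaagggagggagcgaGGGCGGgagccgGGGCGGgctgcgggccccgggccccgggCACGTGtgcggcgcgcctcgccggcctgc
AMD1: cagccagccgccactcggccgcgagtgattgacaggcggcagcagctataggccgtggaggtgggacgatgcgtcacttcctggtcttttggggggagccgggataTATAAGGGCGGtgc
SRM: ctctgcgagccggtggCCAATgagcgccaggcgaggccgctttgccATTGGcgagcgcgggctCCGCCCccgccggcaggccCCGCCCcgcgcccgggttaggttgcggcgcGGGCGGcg
SMS: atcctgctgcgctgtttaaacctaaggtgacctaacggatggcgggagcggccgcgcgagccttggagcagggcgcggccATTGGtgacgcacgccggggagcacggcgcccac
SAT1: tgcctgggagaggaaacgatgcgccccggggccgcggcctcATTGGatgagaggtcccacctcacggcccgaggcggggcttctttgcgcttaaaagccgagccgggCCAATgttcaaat
The printed ODC1 stretches held GC boxes and 1 E-box, the letters bound by MYC and related factors. AMD1 held a TATA box directly beside a GC box, and SAT1 held CCAAT boxes. The printed upstream stretch of ODC1 stops 177 bases before its RefSeq start. A TATA box of ODC1 lay in the part left out, at -32 from that start. The printed SMS stretch likewise stops 136 bases before its RefSeq start, and a GC box of SMS lay in the part left out, at -46. Over the 250 bases before each start, 7 of the 10 genes matched the promoter table (10 windows). An E-box lay in 2 of the 10 windows, 1 each of ODC1 and SRM, and in 6.34% of 35116 promoters of all genes. GC boxes lay in 9 of the 10 windows against 42.6% of all promoters, CCAAT boxes in 5 against 32% and TATA boxes in 3 against 18.9%. Windows of 1 gene can overlap and are not independent. The full androgen response element searched, the half-site AGAACA and its reverse complement with a gap of 3 bases, was in 0 of the 10 windows and in 0.00285% of all promoters, and the half-site alone was in 0 of the 10 and in 12.4% of all.

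The other genes lie on chromosome 10 (PAOX, 133379234 to 133391694), 20 (SMOX, 4120980 to 4187747), 19 (OAZ1, 2269509 to 2273490), 15 (OAZ2, 64687573 to 64703281) and 8 (AZIN1, 102826357 to 102893864) of GRCh38. Per kilobase of exon, the levels of the 10 genes spread widely in vehicle at 24 h, with the antizyme OAZ1 highest. The means per kilobase were 189 CPM for OAZ1, 113 for ODC1, 82.2 for AMD1, 66.7 for SRM, 62.1 for SMS, 38.6 for AZIN1, 28.4 for SAT1, 15.7 for OAZ2, 1.67 for SMOX and 1.62 for PAOX. The ranges of neighbouring genes overlapped for SRM with SMS and for SMOX with PAOX, and for no other neighbours in that order. With R1881 at 72 h, ODC1 stood first at 504 CPM per kilobase, SMS followed at 227 and OAZ1 at 168, and the neighbours SAT1 (84.1) and SRM (83.0) overlapped. The order depends on the lengths, which join the exons of all annotated transcripts (3436 bases for OAZ1, 2160 for SMS). In CPM alone with R1881 at 72 h, OAZ1 had a mean of 576 and SMS of 491.

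**Figure D1:**
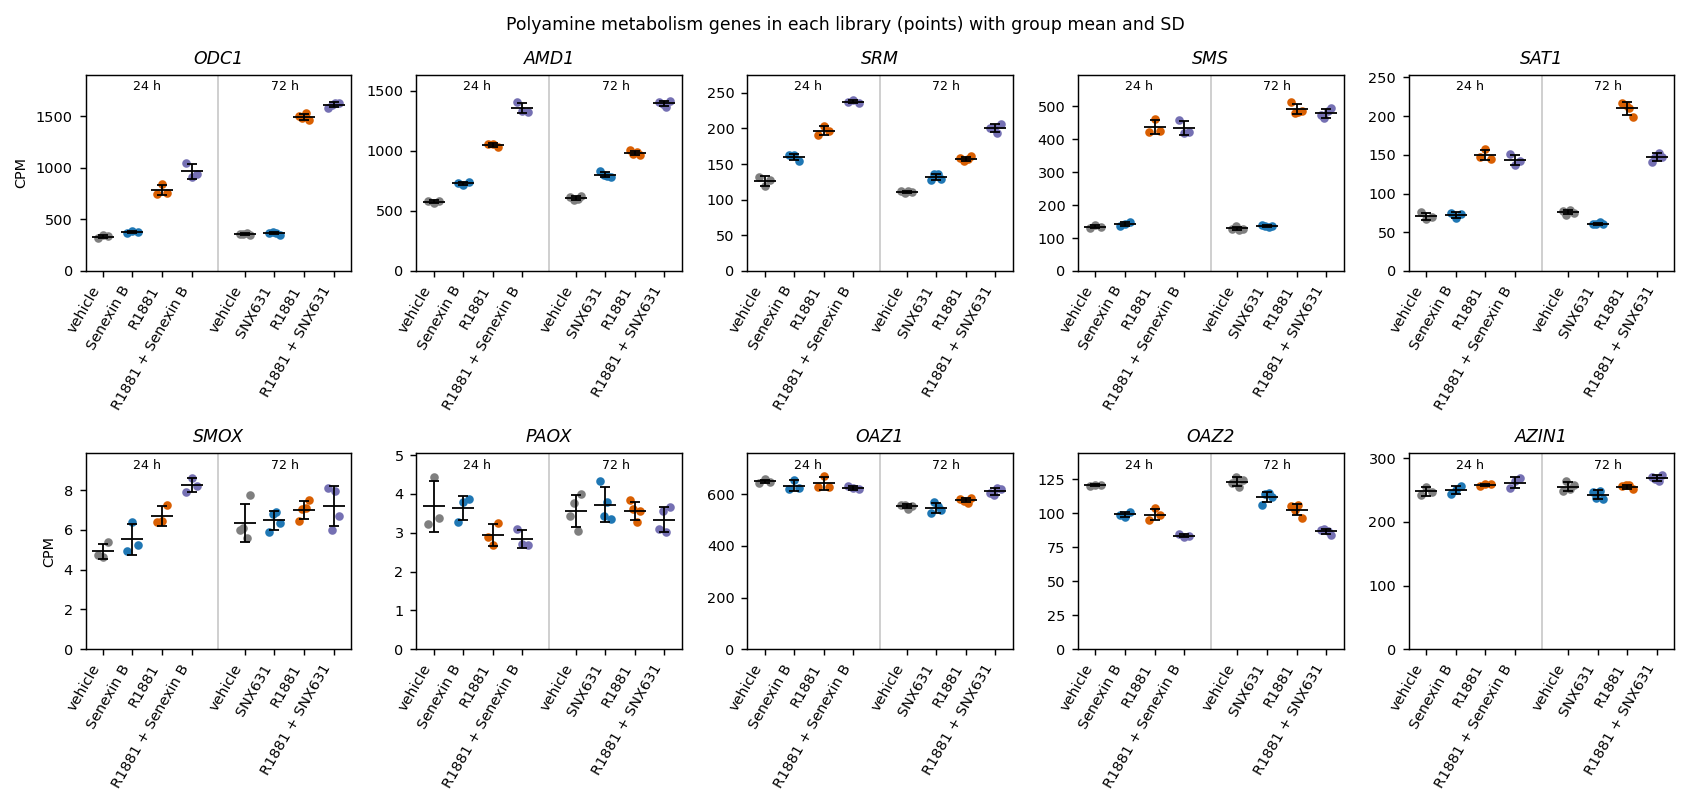
Level of each of the 10 genes in CPM (vertical axis, starting at 0, different in each panel) in all 28 libraries, by treatment (horizontal axis) for the 24 h and the 72 h experiment. Points are libraries and black bars are the group mean and SD; ODC1, AMD1, SRM, SMS and SAT1 stood higher in every R1881 library than in the libraries without R1881 at the same inhibitor, and OAZ2 lower.

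Androgen treatment raised synthesis genes and SAT1, and lowered none of the 10 past the fold limit. At 24 h without inhibitor, 5 of the 10 genes were called, all 5 higher, where 19% of 15948 genes tested were called and 9.81% were called higher. With Senexin B present the count was 4, all higher, against 18.9% of all genes called and 9.97% called higher. At 72 h, 4 were called without inhibitor and 5 with SNX631, all higher, against 19.8% and 22% of 16074 genes called and 9.7% and 10.1% called higher. The median log2 change over the 10 genes was 0.52, 0.58, 0.32 and 0.36 in these 4 comparisons, and that over all genes lay between −0.016 and −0.011. The 10 genes were chosen with earlier results of these data known. The values over all genes are therefore given for scale and do not test the pathway as a whole. Fold changes are from edgeR fits of each experiment alone, with Benjamini-Hochberg adjustment over all genes tested.

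ODC1, the enzyme that starts the pathway, had 324, 344 and 334 CPM in the 3 vehicle libraries at 24 h and 751, 841 and 759 CPM with R1881. The corresponding values with Senexin B were 366, 392 and 379 CPM without and 1047, 914 and 936 CPM with R1881. No R1881 library overlapped the libraries without it. ODC1 rose by 1.23 ± 0.043 (SE) on the log2 scale, or 2.34-fold, without inhibitor (FDR = 7.45e-22), and by 1.35 ± 0.043 with Senexin B (FDR = 5.21e-23). At 72 h its 4 vehicle libraries had 361, 363, 369 and 349 CPM and its R1881 libraries 1505, 1483, 1530.0 and 1461 CPM. With SNX631 the values were 367, 376, 367 and 351 CPM, and with both compounds 1577, 1611, 1629 and 1627 CPM. The R1881 libraries at 72 h were all above those at 24 h. The log2 increase at 72 h was 2.04 ± 0.022, or 4.13-fold (FDR = 1.09e-41), and 2.13 ± 0.022 with SNX631 (FDR = 2.49e-42).

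SMS, which makes spermine, had the largest log2 change of the 10 genes at 24 h. Its vehicle libraries had 131, 139 and 132 CPM and its R1881 libraries 422, 461 and 424 CPM. The libraries with Senexin B had 137, 143 and 147 CPM without and 457, 419 and 423 CPM with R1881. SMS rose 3.25-fold, a log2 change of 1.70 ± 0.040 (FDR = 1.26e-26), and by 1.60 ± 0.041 with Senexin B (FDR = 1.17e-25). At 72 h the vehicle libraries had 128, 135, 126 and 128 CPM and the R1881 libraries 513, 480.0, 483 and 487 CPM. SNX631 libraries had 139, 138, 132 and 137 CPM without and 472, 463, 485 and 495 CPM with R1881. Libraries with and without R1881 did not overlap, and the log2 increases were 1.92 ± 0.029 (FDR = 6.56e-37) and, with SNX631, 1.80 ± 0.029 (FDR = 3.66e-36).

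AMD1, which supplies the aminopropyl donor, had 582, 567 and 584 CPM in vehicle and 1060.4, 1060.0 and 1032 CPM with R1881 at 24 h. With Senexin B it had 728, 712 and 744 CPM, and with both compounds 1402, 1335 and 1322 CPM. The 4 groups followed each other without overlap, from vehicle to Senexin B to R1881 to the combination. At 72 h the values were 617, 593, 599.7 and 619.6 CPM in vehicle and 1003, 973, 987 and 967 CPM with R1881. With SNX631 they were 831, 801, 789 and 785 CPM, and with both compounds 1403, 1393, 1361 and 1416 CPM. The same order of groups held at 72 h, again without overlap. Androgen raised AMD1 by 0.86 ± 0.031 and, with Senexin B, 0.89 ± 0.030 on the log2 scale at 24 h (FDR = 1.28e-21 and 3.77e-22), and by 0.69 ± 0.021 and, with SNX631, 0.78 ± 0.021 at 72 h (FDR = 1.86e-26 and 8.77e-29).

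SRM, the spermidine synthase, moved in the same order of groups but lay near the fold limit. It had 132, 119 and 128 CPM in vehicle, 162, 162 and 155 CPM with Senexin B, 191, 204 and 196 CPM with R1881 and 237, 239.5 and 236 CPM with both at 24 h. At 72 h it had 112, 109, 112 and 111 CPM in vehicle, 127, 135, 136 and 129 CPM with SNX631, 158, 154, 157 and 161 CPM with R1881 and 201, 201, 193 and 206 CPM with both. In each experiment the 4 groups did not overlap. The androgen change was 0.64 ± 0.038 at 24 h (FDR = 1.15e-15) and 0.59 ± 0.029 with SNX631 at 72 h (FDR = 3.53e-20), both called. With Senexin B at 24 h it was 0.57 ± 0.038 (FDR = 1.23e-14) and without inhibitor at 72 h 0.50 ± 0.031 (FDR = 6.45e-17), under the fold limit of 0.58 on the log2 scale. The call with SNX631 was lost in 5 of the 16 fits that left out 1 library, those without SNX631 replicate 1 or 4 or combination replicate 1, 2 or 4, where the change was 0.57 to 0.58.

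SAT1, the acetyltransferase of breakdown, rose with androgen in all 4 comparisons. It had 75.7, 67.0 and 69.9 CPM in vehicle and 147, 158 and 144 CPM with R1881 at 24 h. With Senexin B it had 75.2, 67.8 and 74.1 CPM, and with both compounds 150.5, 137 and 142 CPM. The log2 increases were 1.09 ± 0.047 (FDR = 1.61e-19) and, with Senexin B, 0.98 ± 0.049 (FDR = 6.59e-18), with no overlap of libraries. At 72 h SAT1 had 76.8, 72.3, 79.3 and 75.4 CPM in vehicle and 217, 214, 211 and 198 CPM with R1881. SNX631 libraries had 60.4, 60.5, 62.8 and 60.5 CPM and combination libraries 141, 148, 152 and 147 CPM. The 4 groups at 72 h did not overlap: SNX631 alone was lowest and R1881 alone highest. Androgen raised SAT1 by 1.46 ± 0.034 at 72 h (FDR = 9.82e-31) and by 1.25 ± 0.037 with SNX631 (FDR = 9.63e-28).

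The oxidases SMOX and PAOX were low, with 50 to 187 and 28 to 118 counts per library. SMOX had 4.75, 4.64 and 5.37 CPM in vehicle and 6.41, 6.44 and 7.27 CPM with R1881 at 24 h, and 4.92, 6.40 and 5.25 CPM with Senexin B and 7.91, 8.61 and 8.23 CPM with both. Its androgen change passed the FDR limit at 24 h, at 0.41 ± 0.13 (FDR = 0.0079) and, with Senexin B, 0.58 ± 0.13 (FDR = 0.000285). The change without inhibitor missed the limit under library totals, with no filter on low counts, in DESeq2 and in 5 of the 12 fits that left out 1 library, at 0.33 to 0.44 (highest FDR = 0.0487). Neither was called, although the change with Senexin B was called, at 0.68 and 0.61, in the fits that left out Senexin B replicate 2 or combination replicate 1. At 72 h SMOX group means were 6.36 to 7.20 CPM, and its androgen changes were 0.14 ± 0.12 and 0.13 ± 0.11, not past the FDR limit. PAOX group means were 2.83 to 3.72 CPM, and none of its androgen changes passed the limit (FDR = 0.0973 to 0.947). PAOX shares 158 exon bases with AL360181.3 on the same strand, so its reads are uncertain.

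Of the regulators, the antizyme OAZ2 moved opposite to the synthesis genes. It had 119.8, 121 and 121 CPM in vehicle, 98.9, 97.5 and 101 CPM with Senexin B, 95.2, 103 and 98.3 CPM with R1881 and 84.8, 82.7 and 83.1 CPM with both at 24 h. At 72 h it had 122, 127, 119 and 124 CPM in vehicle, 106, 114, 115 and 112 CPM with SNX631, 105, 102, 106 and 96.8 CPM with R1881 and 87.6, 88.3, 86.8 and 84.3 CPM with both. Vehicle libraries were highest and combination libraries lowest in both experiments, with no overlap between those groups and any other. The androgen change was past the FDR limit in all 4 comparisons without reaching 1.5-fold, at -0.29 ± 0.038 (FDR = 9.96e-08) and -0.25 ± 0.041 with Senexin B (FDR = 4.33e-06) at 24 h. At 72 h it was -0.27 ± 0.034 (FDR = 6.87e-09) and -0.38 ± 0.034 with SNX631 (FDR = 1.99e-12). Whether reads were counted by strand is not stated, and OAZ2 shares 554 exon bases with AC100830.3 on the opposite strand.

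OAZ1 and AZIN1 changed little. OAZ1 group means at 24 h were 649.5 ± 6.60 (SD, n = 3) CPM in vehicle and 642 ± 25.2 CPM with R1881, and AZIN1 means were 248 ± 6.55 and 258 ± 1.34 CPM. Neither passed the FDR limit with androgen at 24 h. At 72 h with SNX631, both were higher with R1881 past the FDR limit, OAZ1 by 0.14 ± 0.023 (FDR = 9.83e-07) and AZIN1 by 0.13 ± 0.026 (FDR = 1.9e-05), from means of 548 ± 19.4 to 610.4 ± 12.9 CPM and 243 ± 6.66 to 269 ± 4.21 CPM (SD, n = 4). Scaled by library totals alone, both missed the limit, at 0.035 (FDR = 0.171) for OAZ1 and 0.026 (FDR = 0.369) for AZIN1. Without SNX631 neither change passed, and the intervals (95%) were 0.0057 to 0.099 for OAZ1 and -0.060 to 0.046 for AZIN1. Both share exon bases with other genes, OAZ1 with JSRP1 and AC005258.1 and AZIN1 with AZIN1-AS1. In all, 7, 7, 6 and 8 of the 10 genes were past the FDR limit with androgen in the 4 comparisons, where 48.4%, 47.5%, 52.2% and 57.3% of all genes were. The choice of the 10 genes with earlier results known bears on these counts too.

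**Figure D2:**
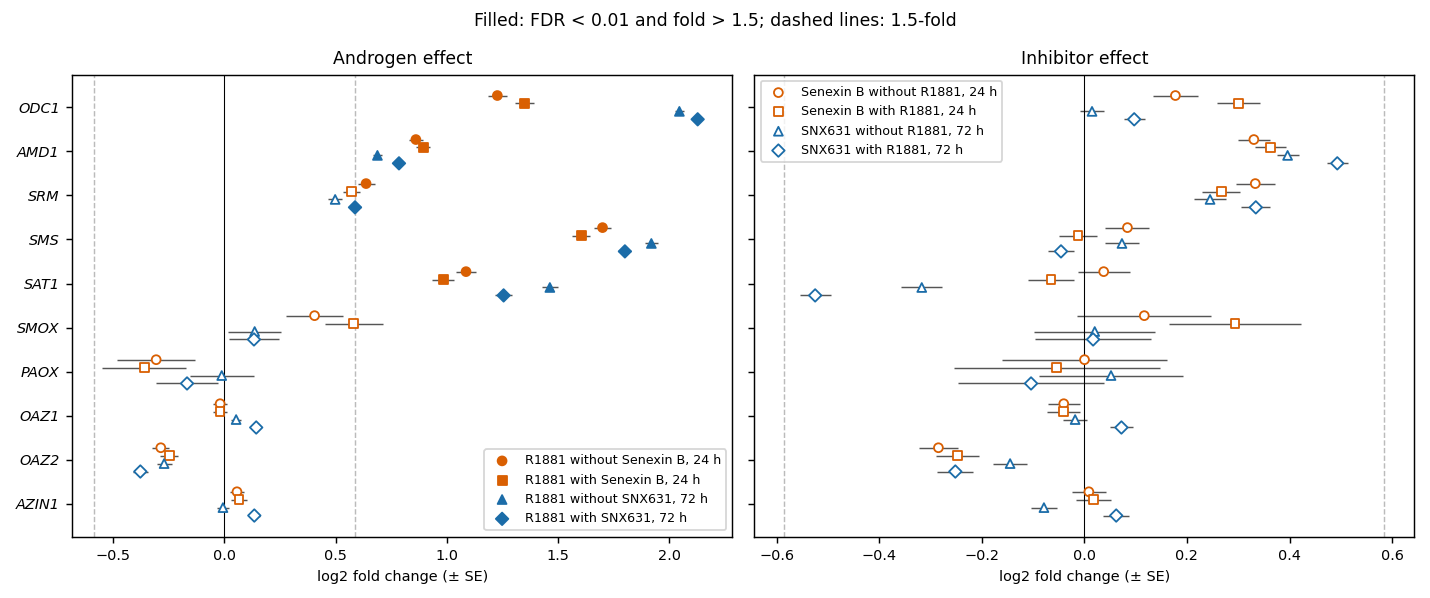
Log2 fold change (horizontal axis, points with SE) of each gene with R1881 (left) and with Senexin B or SNX631 (right), on different horizontal scales. Filled symbols are called genes and dashed lines mark 1.5-fold; ODC1, AMD1, SMS and SAT1 were filled in all 4 androgen comparisons, and no symbol is filled for an inhibitor.

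AMD1, SRM and OAZ2 were past the FDR limit in all 4 inhibitor comparisons, ODC1 in 3 and SAT1 in both with SNX631, in each case by less than 1.5-fold. In edgeR, 0 of the 10 genes were called with Senexin B without or with R1881 or with SNX631 without or with R1881, where 3.79%, 3.12%, 4.77% and 4.12% of all genes were called. DESeq2 also called 0 in each of the 4. The genes past the FDR limit numbered 4, 4, 4 and 6, against 25.1%, 22.7%, 26.9% and 33.1% of all genes. Those at an unadjusted p under 0.05 in edgeR numbered 4, 5, 6 and 7. The share of all genes at that p was not computed, here or in the comparisons below.

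AMD1 was higher with inhibitor in every comparison. Without R1881 the log2 difference was 0.33 ± 0.031 for Senexin B (FDR = 4.69e-10) and 0.40 ± 0.021 for SNX631 (FDR = 1e-17), and in the presence of R1881 it was 0.36 ± 0.030 (FDR = 4.87e-11) and 0.49 ± 0.021 (FDR = 5.96e-21). The last of these, 1.41-fold, was the nearest to the fold limit among increases with an inhibitor. SRM was higher by 0.33 ± 0.038 with Senexin B (FDR = 3.61e-08) and 0.25 ± 0.031 with SNX631 (FDR = 4.82e-08) without R1881, and by 0.27 ± 0.037 (FDR = 1.2e-06) and 0.33 ± 0.028 (FDR = 2.63e-12) with it. OAZ2 was lower in all 4, with log2 differences of -0.28 ± 0.037 (FDR = 3.47e-07) and -0.25 ± 0.042 (FDR = 2.33e-05) for Senexin B and -0.14 ± 0.033 (FDR = 0.000495) and -0.25 ± 0.035 (FDR = 1.9e-07) for SNX631, each pair without and with R1881.

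ODC1 was higher with Senexin B by 0.18 ± 0.044 without R1881 (FDR = 0.00175) and 0.30 ± 0.041 with it (FDR = 1.05e-06). The first missed the limit in 2 of the 12 fits without 1 library (highest FDR = 0.0116). With SNX631 its difference was 0.015 ± 0.023 without R1881, not past the limit (FDR = 0.656, interval -0.032 to 0.061), and 0.097 ± 0.020 with R1881 (FDR = 0.00014). SMS did not pass the limit with either inhibitor, at 0.084 ± 0.043 and -0.012 ± 0.037 for Senexin B and 0.073 ± 0.032 and -0.046 ± 0.025 for SNX631. The intervals of the 4 SMS differences lay within −0.097 and 0.17, and libraries with and without inhibitor overlapped.

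SAT1 was lower with SNX631, by -0.32 ± 0.040 without R1881 (FDR = 3.82e-08) and by -0.52 ± 0.030 with it (FDR = 7.07e-17). The second is 1.44-fold, from 210.1 ± 8.42 to 147 ± 4.69 CPM (SD, n = 4). With Senexin B the SAT1 differences were 0.038 ± 0.050 (FDR = 0.603, interval -0.065 to 0.14) and -0.065 ± 0.045 (FDR = 0.281, interval -0.16 to 0.026), and libraries overlapped. OAZ1 was higher by 0.072 ± 0.023 with SNX631 in the presence of R1881 (FDR = 0.00964), which fell to 0.040 under library totals (FDR = 0.158) and also missed the limit in 6 of the 16 fits without 1 library and under a replicate block. No PAOX, SMOX or AZIN1 difference with an inhibitor passed the FDR limit.

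Whether the androgen effect differed in the presence of inhibitor was tested as an interaction. In edgeR, 0 of the 10 genes were called at 24 h or at 72 h, where 0.577% and 1.19% of all genes were, and DESeq2 called 0 in both. No gene passed the FDR limit at 24 h, where 2.09% of all genes did. In edgeR 0 of the 10 genes had an unadjusted p under 0.05 at 24 h and 8 had at 72 h. The share of all genes at that p was not computed, so these counts cannot be read as particular to the 10 genes. At 72 h SAT1 and AZIN1 passed the FDR limit, where 7.09% of all genes did. The androgen increase of SAT1 was smaller with SNX631 by -0.21 ± 0.050 on the log2 scale (FDR = 0.00374), and the androgen change of AZIN1 was larger by 0.14 ± 0.037 (FDR = 0.00696). Both lay near the limit: SAT1 missed it in 5 of the 16 fits without 1 library (highest FDR = 0.0192) and with all libraries in 1 fit (FDR = 0.0134), and AZIN1 in 8 of the 16 (highest FDR = 0.0228) and under a replicate block (FDR = 0.0115). For comparison, KLK3 with R1881 had 112 CPM without and 29.5 CPM with Senexin B, and 137 CPM without and 46.1 CPM with SNX631. For ODC1 the interval of the interaction was -0.00052 to 0.25 at 24 h and 0.020 to 0.14 at 72 h, and for AMD1 it was -0.056 to 0.12 and 0.036 to 0.16.

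**Figure D3:**
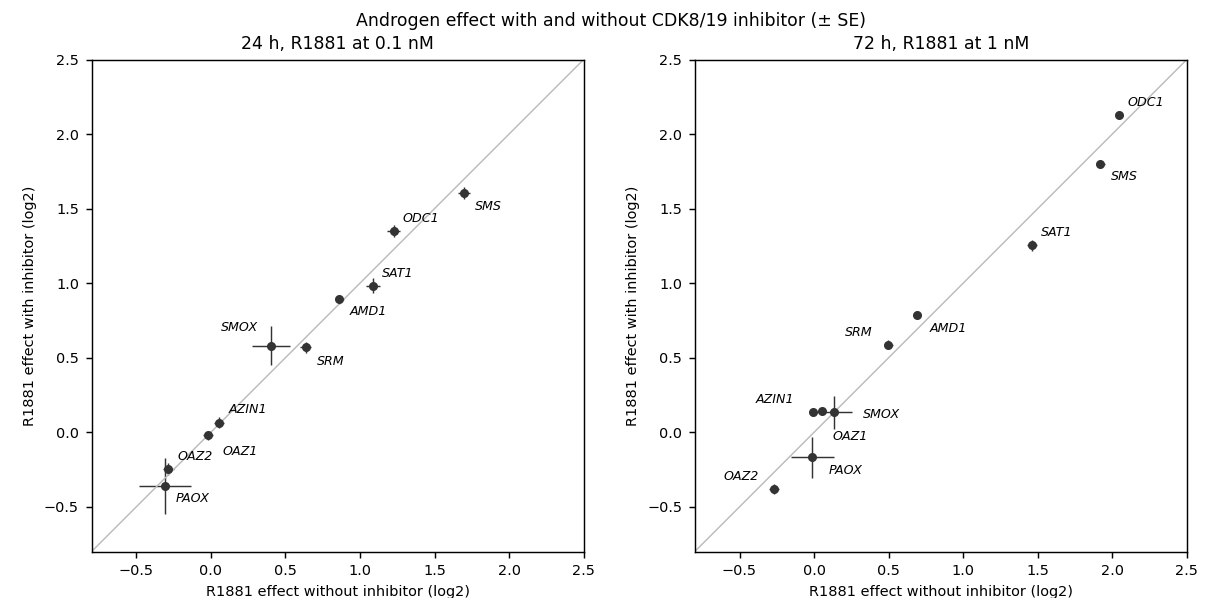
Log2 fold change with R1881 without inhibitor (horizontal axis) and with Senexin B or SNX631 (vertical axis) for the 10 genes at 24 h and 72 h, with SE, and the line of equal effect. Genes lie near the line; at 72 h SAT1 sits below it, at 1.46 without and 1.25 with SNX631.

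Between the experiments, which used different androgen doses and times, the androgen effect without inhibitor was compared in a fit of all 28 libraries. ODC1 alone of the 10 genes was called, where 1.88% of 16672 genes were called and 0.57% called higher, with an effect at 72 h and 1 nM larger by 0.82 ± 0.049 on the log2 scale than at 24 h and 0.1 nM (FDR = 3.08e-17). The vehicle means of ODC1 were 334 ± 10.4 CPM (SD, n = 3) and 361 ± 8.31 CPM (SD, n = 4), and the R1881 means 784 ± 49.9 and 1495 ± 29.7 CPM. SAT1 and SMS also had larger effects at 72 h past the FDR limit, by 0.38 ± 0.059 (FDR = 4.09e-06) and 0.22 ± 0.050 (FDR = 0.00134), and AMD1 had a smaller effect, by -0.17 ± 0.036 (FDR = 0.000586). In all, 4 of the 10 genes passed this limit, against 7.54% of all genes.

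Senexin B and SNX631, which the study describes as chemically unrelated, were given at different doses and times, so the difference between their effects includes those too. In edgeR, 0 of the 10 genes were called for it without or with R1881, where 0.474% and 0.21% of all genes were, 0 were called by DESeq2, and 4 had an unadjusted p under 0.05 in each. SAT1 passed the FDR limit in both, with a SNX631 effect lower than that of Senexin B by -0.35 ± 0.066 without R1881 (FDR = 0.000381) and -0.45 ± 0.055 with it (FDR = 2.35e-07). With 2.21% and 2.72% of all genes past the limit without and with R1881, 1 and 3 of the 10 genes were. In the presence of R1881, ODC1 was lower by -0.19 ± 0.047 (FDR = 0.00757) and AMD1 higher by 0.14 ± 0.035 (FDR = 0.00935). These missed the limit in 8 and 13 of the 28 fits without 1 library, ODC1 at -0.20 to -0.13 (highest FDR = 0.0790) and AMD1 at 0.13 to 0.14 (highest FDR = 0.0345). For SMS the intervals of the difference were -0.12 to 0.10 without and -0.12 to 0.068 with R1881. Between the vehicle groups of the experiments, 0 genes were called in edgeR or DESeq2 where 5.97% of all genes were in edgeR, and 6 had an unadjusted p under 0.05. OAZ1 and SRM were lower at 72 h past the FDR limit, by -0.23 ± 0.027 (FDR = 7.59e-10) and -0.19 ± 0.034 (FDR = 1.47e-05), where 32.6% of all genes passed it.

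Across the 28 libraries, each centred on the mean of its experiment, AMD1 and SRM had a Pearson r of 0.989, ODC1 and SMS of 0.981 and SMS and SAT1 of 0.960, while OAZ2 had −0.951 with SRM and −0.942 with AMD1. These values describe libraries that share treatments and are not independent. By the same measure over 13475 genes, the genes most like ODC1 were PLPP1 (r = 0.997), MAP9 (0.995) and WNT7B (0.992), and those named here as most like AMD1 were ICMT (0.992) and PPIF (0.990). SAT1 was most like IQGAP2 (0.991), UBE2J1 (0.985) and LRIG1 (0.984), and SMOX most like GON7 (0.827), FAR2P3 (0.822) and AFAP1L2 (0.810).

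A list of 28 other genes around the pathway was followed in the same fits, of which 24 were tested and AGMAT, ATP13A4, MAT1A and SATL1 had too few counts. In the 4 androgen comparisons 3, 3, 3 and 4 of the 24 were called, and with the inhibitors 1, 0, 2 and 0 (Senexin B without and with R1881, then SNX631). Over all genes 19%, 18.9%, 19.8% and 22% were called with androgen and 3.79%, 3.12%, 4.77% and 4.12% with the inhibitors. Past the FDR limit with androgen were 18, 12, 18 and 18 of the 24, and 48.4%, 47.5%, 52.2% and 57.3% of all genes. With the inhibitors 10, 11, 9 and 10 of the 24 were, and 25.1%, 22.7%, 26.9% and 33.1% of all genes. This list too was chosen with earlier results of these data known. APIP, an enzyme of the methionine salvage route that recycles the by-product of spermidine and spermine synthesis, rose in all 4 androgen comparisons. APIP averaged 16.2 ± 0.264 CPM (SD, n = 3) in vehicle at 24 h, as against 39.8 ± 3.70 CPM under R1881, and 17.5 ± 0.831 and 41.5 ± 1.47 CPM (SD, n = 4) at 72 h. The log2 changes were 1.29 ± 0.070 (FDR = 7.8e-17) and 1.38 ± 0.076 with Senexin B (FDR = 5.42e-17) at 24 h, and 1.24 ± 0.060 (FDR = 8.83e-21) and 1.68 ± 0.059 with SNX631 (FDR = 1.11e-25) at 72 h. APIP shares 259 exon bases with PDHX on the opposite strand.

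SLC18B1, a vesicular polyamine transporter, fell in all 4 androgen comparisons, from 23.8 ± 1.34 to 12.1 ± 1.84 CPM at 24 h and from 27.96 ± 1.92 to 15.6 ± 1.23 CPM at 72 h. Its log2 changes were -0.98 ± 0.097 and, with Senexin B, -1.04 ± 0.099 (FDR = 8.6e-11 and 5.44e-11), then -0.85 ± 0.071 and, with SNX631, -0.90 ± 0.071 (FDR = 1.8e-13 and 3.6e-14). Of the genes of ornithine supply, the arginine transporter SLC7A1 was called at 24 h, at 0.63 ± 0.035 (FDR = 9.8e-17), and was past the FDR limit but under 1.5-fold in the other 3 androgen comparisons, at 0.44 with Senexin B, 0.36 at 72 h and 0.52 with SNX631. OAT, ornithine aminotransferase, was called at 72 h, at 0.66 ± 0.097 (FDR = 2.18e-07) and, with SNX631, 0.76 ± 0.087 (FDR = 5.52e-10). At 24 h its changes of 0.37 and, with Senexin B, 0.54 were past the FDR limit (FDR = 0.000609 and 4.28e-06) and under 1.5-fold. The antizyme relative OAZ3 was past the FDR limit in all 4, and called with Senexin B at 0.73 ± 0.14 (FDR = 2.45e-05) and with SNX631 at 1.02 ± 0.11 (FDR = 1.41e-10). Without inhibitor its changes were 0.58 at 24 h, just under the fold limit (FDR = 8.76e-05), and 0.52 at 72 h (FDR = 0.000131). The exons of OAZ3 overlap those of MRPL9, TDRKH, AL589765.4 and AL589765.5 on the opposite strand. They also share 424 bases with AL589765.2 on the same strand, so the reads of OAZ3 are uncertain. SLC3A2, the heavy chain of amino acid transporters, was called with Senexin B without R1881, at 0.62 ± 0.042 (FDR = 2.84e-13), from 85.4 ± 1.30 to 131 ± 2.79 CPM, and was past the FDR limit with 0.41, 0.37 and 0.36 in the other 3 inhibitor comparisons. None of the genes of eIF5A hypusination, which uses spermidine as its substrate, was called in these 8 comparisons (EIF5A, EIF5A2, DHPS and DOHH). At 24 h EIF5A was higher with R1881 past the FDR limit, by 0.30 ± 0.032 (FDR = 9.64e-10) and, with Senexin B, 0.27 ± 0.032 (FDR = 1.61e-08). EIF5A2 was lower at 24 h past that limit without inhibitor only, by -0.39 ± 0.12 (FDR = 0.0049), and DHPS and DOHH passed it in neither. Mean CPM at 72 h without and with R1881 was 296 and 369 for EIF5A and 14.3 and 18.7 for DOHH. It was 10.3 and 8.15 for EIF5A2 and 31.9 and 31.5 for DHPS. With SNX631 these means were 297 and 383 for EIF5A and 16.2 and 18.9 for DOHH. For EIF5A2 they were 8.65 and 6.30, and for DHPS 29.8 and 28.1. EIF5A shares 241 exon bases with GPS2 on the opposite strand.

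**Figure D4:**
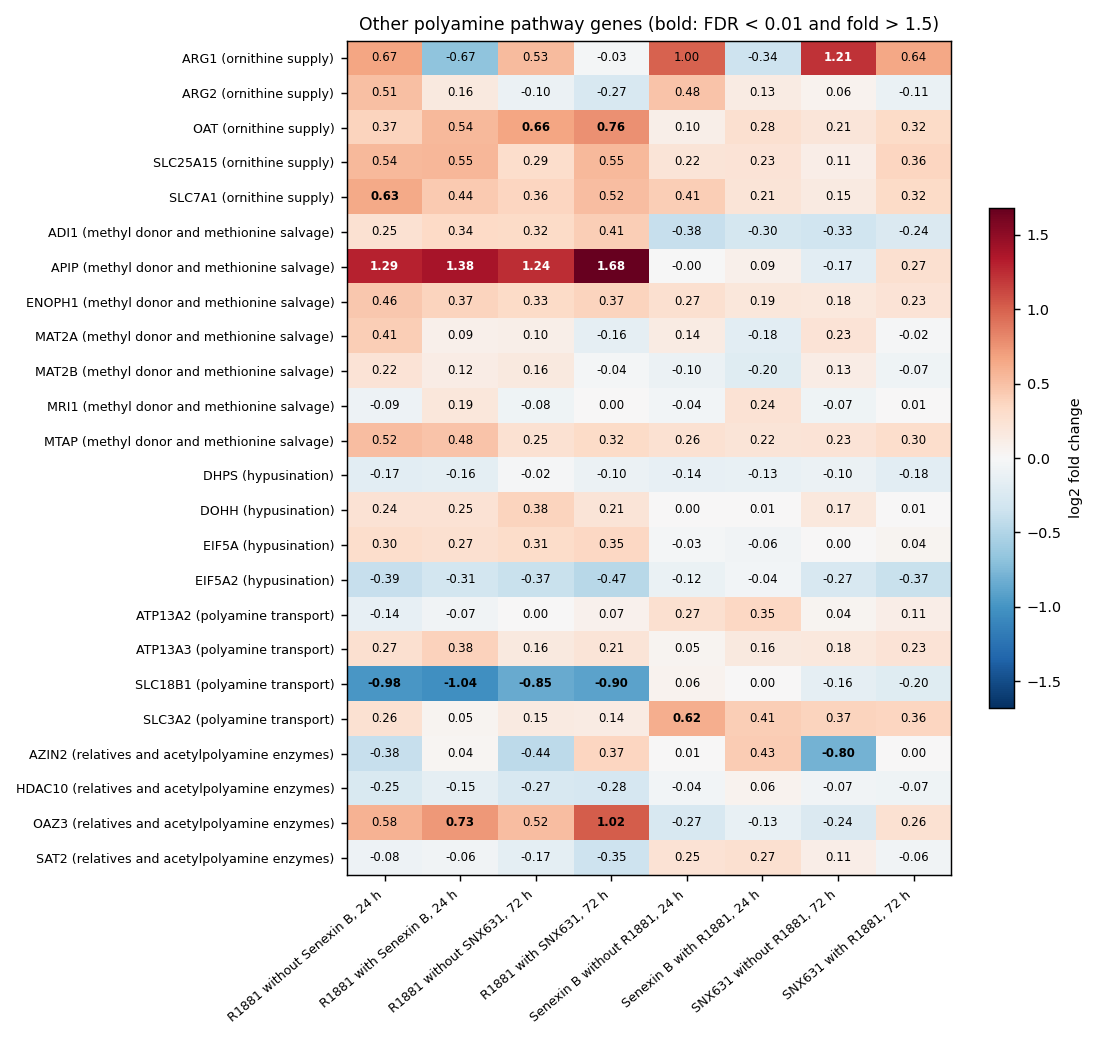
Log2 fold change (colour and printed value) of the 24 tested genes of the wider polyamine pathway (rows, with their role) in the 4 androgen and 4 inhibitor comparisons (columns). Bold values are called; APIP was higher and SLC18B1 lower in all 4 androgen columns.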

How the data were processed

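Total RNA of 28 LNCaP libraries (8 groups) was sequenced after directional library preparation. The authors deposited expected counts per gene, unscaled, with 16.9% of values fractional, which were rounded here. The submitters' processing notes name FastQC, cutadapt 2.8, STAR 2.7.2b, featureCounts and Subread 2.0.3 with GRCh38.p13 and GRCm39; counting by strand is not given in the sources used here. Groups were taken from the sample labels.

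Genes were tested by edgeR 4.0.16 (R 4.3.3, quasi-likelihood, TMM, minimum count 10, minimum total 15), each experiment alone with its 4 groups, and between experiments in 1 fit of 28 libraries. Intervals (95%) used the t quantile at the degrees of freedom of that test. Genes were called at a Benjamini-Hochberg FDR under 0.01 and a fold over 1.5, the limits of the study. Printed CPM used TMM factors of all 28 libraries. The common biological coefficient of variation was 2.72% at 24 h and 2.38% at 72 h. All replicate pairs differed beyond sampling noise (lowest chi-square per degree of freedom 1.19). Tested on simulated data with 200 changed genes, the 24 h fit recovered 95.5% of 2-fold and 99% of 3-fold changes, and the 72 h fit 99.5% and 100%. The changed genes were drawn only from those above a count floor in vehicle, and every gene had the same spread. No change near the limit of 1.5-fold was simulated. Alternatives were DESeq2 1.42.0, its size factors, library totals, no filter, other limits, a replicate block, all libraries in 1 fit, and leaving out each library.

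All 10 genes are described. Of the other pathway genes, those called in at least 1 of the 8 single-treatment comparisons are named, and for ODC1, AMD1, SAT1 and SMOX the 3 genes with the highest Pearson r of log2 CPM, among genes with a mean of at least 1 CPM. A gene among those most like AMD1 is not reported here. ARG2 was named after its values were seen. The members and gene lists were chosen with earlier results of these data known. Positions are from GENCODE 29, which may not be the release used for counting. Lengths are unions of exons.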

Additional observations from a re-analysis of the deposited data

Results flagged for a closer look

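The androgen effect on ODC1 without inhibitor differed between the experiments, larger at 72 h with 1 nM R1881 than at 24 h with 0.1 nM by 0.82 ± 0.049 (SE) on the log2 scale (edgeR, FDR = 3.08e-17). Time, dose and experiment cannot be told apart. SAT1 in SNX631 replicate 3 at 72 h, at 62.8 CPM, stood apart from the other 3 libraries of its group at 60.4, 60.5 and 60.5 CPM. It was the only such library in 40 groups of 4 examined, where chance gives about 1 in 20.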

How the results depend on the processing

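Counts of called genes stayed within 1.5 times of those reported under DESeq2 size factors, library totals, no filter on low counts and the DESeq2 test, and with all 28 libraries in 1 fit for the comparisons within an experiment. With each library left out in turn, counts were 5, 4 to 5, 4 and 4 to 5 for the 4 androgen comparisons, 1 for the androgen effect between experiments, and 0 for all inhibitor, interaction, inhibitor-difference and vehicle comparisons. With FDR under 0.05 and no fold limit the counts became 7 for R1881 with Senexin B, 7 and 8 for R1881 at 72 h without and with SNX631, 4 and 4 for Senexin B without and with R1881, 5 and 7 for SNX631, 3 for the interaction at 72 h, 4 for the androgen difference, 1 and 4 for the inhibitor differences without and with R1881, and 6 for vehicle. At these limits, all genes higher and lower were 4820 and 4337 of 15948 for R1881 with Senexin B. For R1881 at 72 h they were 5096 and 4888 of 16074 without SNX631 and 5330 and 5232 with it. Senexin B had 2984 and 2733 without R1881 and 2857 and 2400 with it, and SNX631 had 3061 and 2803, then 3568 and 3305. The interaction at 72 h had 893 and 1141. Of 16672 genes, the androgen difference had 1077 and 1132, the inhibitor differences 414 and 355, then 577 and 423, and vehicle 3618 and 3518. Of library pairs with the same replicate number, 0 of 18 at 24 h and 0 of 24 at 72 h correlated over 0.1 (medians 0.014 and −0.0083). Pairs with different numbers gave 0 of 36 and 0 of 72, and a weak pairing could lie under that cut. The replicate block left all counts of called genes as reported (5, 4, 4 and 5 with androgen, 0 for inhibitors and interactions) and 8 of the other pathway genes. Over library totals, the DESeq2 test and that block, the count of other pathway genes ranged from 6 to 8. Which of them dropped out is not given here.

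Under library totals the call of SRM was lost for R1881 at 24 h (0.56) and with SNX631 (0.48). Values near 0 changed sign. Under library totals these were AZIN1 with R1881 at 24 h (−0.021) and with Senexin B present (−0.0093), SAT1 with Senexin B alone (−0.0014), OAZ1 with R1881 at 72 h (−0.050) and ODC1 with SNX631 alone (−0.012), and with no filter, PAOX (0.0061) and AZIN1 (0.012) with R1881 at 72 h. Leaving out libraries gave −0.041 to 0.0056 for OAZ1 with R1881 at 24 h, −0.060 to 0.019 for SMS with Senexin B beside R1881, −0.081 to 0.047 for PAOX and −0.024 to 0.0065 for AZIN1 with R1881 at 72 h, and −0.00089 to 0.031 for ODC1 with SNX631 alone. Library totals moved the median of all genes to −0.12 in both androgen comparisons at 72 h, from −0.014, and calls there were 1299 higher and 2121 lower without SNX631 and 1311 and 2435 with it, in place of 1559 and 1626, and 1619 and 1924. Of 58 effects past the FDR limit, 0 changed sign in 1288 alternatives, and 9 missed that limit in at least 1 (57 of the 1288), all with 0.41 or less on the log2 scale. They were SMOX with R1881 at 24 h, ODC1 with Senexin B alone, OAZ1 and AZIN1 with R1881 beside SNX631, OAZ1 with SNX631 beside R1881, the SAT1 and AZIN1 interactions at 72 h, and the inhibitor differences of ODC1 and AMD1 with R1881. The cause was not tested. Depth limits PAOX and SMOX, with at most 118 and 187 counts.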

Other observations

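Among the other genes around the pathway, ARG1 and AZIN2 were called with SNX631 alone at very low levels. ARG1, a liver-type arginase, had 0.773 ± 0.373 CPM in vehicle and 1.85 ± 0.574 CPM with SNX631 (SD, n = 4), a log2 change of 1.21 ± 0.29 (edgeR, FDR = 0.000604). AZIN2, an antizyme inhibitor, had 2.52 ± 0.412 and 1.45 ± 0.311 CPM, a change of -0.80 ± 0.22 (FDR = 0.00312). ARG2, the mitochondrial arginase, was called for the androgen effect between experiments, which was lower at 72 h by -0.61 ± 0.063 (FDR = 4.6e-10), with means of 63.6 ± 1.96 and 91.4 ± 1.46 CPM without and with R1881 at 24 h and 89.2 ± 1.60 and 83.6 ± 4.96 CPM at 72 h. ARG2 shares 904 exon bases with VTI1B on the opposite strand.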
